A study of Mus musculus with 4 samples.

Results

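Aldh1a1 and Aldh1a7 are neighbouring mouse genes for cytosolic aldehyde dehydrogenases, and their transcripts were followed across 4 microarrays of renal cortex. They were chosen as the genes whose probe carries the symbol Aldh1a1 or Aldh1a7 in the platform's probe annotation, which gave 2 of the 9900 genes and unnamed probes on the array, each with 1 probe (RefSeq NM_013467 for Aldh1a1 and NM_011921 for Aldh1a7). The pair was picked with its values on these arrays known, namely its higher signal in diabetic cortex of both genotypes, so those values are given as a description and without a test.

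Diabetic wild-type cortex (DM-WT) came from male C57BL/6J ICAM-1+/+ mice given streptozotocin, a toxin of pancreatic beta cells, at 200 mg/kg into the peritoneum at 8 weeks of age. Its control (ND-WT) came from ICAM-1+/+ males given citrate buffer alone. Diabetic knockout cortex (DM-KO) came from streptozotocin-treated male ICAM-1-/- mice on the C57BL/6J background, which lack an adhesion molecule that leukocytes use to leave the blood, and its control (ND-KO) from ICAM-1-/- males given buffer. Kidneys were taken 12 weeks after injection, at 20 weeks of age, and only streptozotocin-treated mice with blood glucose above 16 mmol/L a week after injection were kept. Each group had 5 mice but 1 array, and whether RNA was pooled for it or taken from 1 animal is not given. No difference between arrays therefore has a replicate check. Every diabetic group received the drug, so streptozotocin and high glucose cannot be told apart. Icam1 itself was not analysed here.

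Vitamin A enters cells as retinol, which retinol and alcohol dehydrogenases oxidise to retinaldehyde, and retinaldehyde dehydrogenases of the ALDH1A family oxidise that to retinoic acid. Retinoic acid binds the nuclear receptors RAR and RXR, and CYP26 enzymes break it down. Aldh1a1 is the family member most abundant in many adult tissues, liver and adrenal among them, and its enzyme also clears aldehydes formed from oxidised lipids. Aldh1a7 is a rodent relative with a very similar protein, whose part in retinaldehyde oxidation is less well established. The probe sequences are not used here, and 2 such similar genes may share signal on either probe. Whether they do was not tested.

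The genes lie next to each other on chromosome 19, on opposite strands, and their promoters are printed here because the genes moved together. RefSeq lists 2 starts for Aldh1a1 and 1 for Aldh1a7. The 250 bases before the second listed start of Aldh1a1 (chr19:20601718-20601967, plus strand) and before the start of Aldh1a7 (chr19:20727557-20727806, minus strand) are given 5′ to 3′ from RefSeq on GRCm38.p6. Capitals mark their longest shared run, 65 bases from position -94 to -30 counted back from the start.
Aldh1a1: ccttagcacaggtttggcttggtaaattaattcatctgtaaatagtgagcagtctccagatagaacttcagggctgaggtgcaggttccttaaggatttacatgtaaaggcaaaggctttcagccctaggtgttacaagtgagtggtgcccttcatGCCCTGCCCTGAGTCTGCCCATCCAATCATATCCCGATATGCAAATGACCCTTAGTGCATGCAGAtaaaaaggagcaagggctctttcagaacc
Aldh1a7: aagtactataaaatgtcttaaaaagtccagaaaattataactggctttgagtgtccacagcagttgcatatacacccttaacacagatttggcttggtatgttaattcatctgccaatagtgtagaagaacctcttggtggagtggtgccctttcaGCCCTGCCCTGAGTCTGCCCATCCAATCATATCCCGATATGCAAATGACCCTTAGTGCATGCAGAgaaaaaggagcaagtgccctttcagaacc

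An end-to-end alignment of these windows was identical at 66.0% of its columns. The likeness lay close to the start, where the last 100 bases were 94.0% identical, against 78.6% for the last 150. Aldh1a2, which codes for another retinaldehyde dehydrogenase, gave 41.4% with the same Aldh1a1 window and 40.4% with Aldh1a7, and its longest shared run with either was 10 bases. The other listed start of Aldh1a1 (window chr19:20492333-20492582, plus strand) was 50.9% identical to Aldh1a7, with a longest shared run of 8 bases. For Aldh1a3 no promoter is shown.

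Within the shared run both windows held the CCAAT box at position -72 and the octamer ATGCAAAT at position -56, on the genes' own strand. CCAAT stood, on either strand, in 33.8% of 32851 promoter windows of the same length, and ATGCAAAT in 1.60%. Aldh1a7 alone had a further CCAAT at -137 and a TATAAA at -244, a motif present in 12.4% of all windows. The nuclear receptor site AGGTCA, the core TGACNNNGC of the antioxidant response element and the core GCGTG of the xenobiotic response element were not found in any of the 3 windows. These motifs stood in 14.0%, 10.2% and 28.2% of all windows. A match describes letters in a window only.

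Both genes gave a signal above background on all 4 arrays. A spot counted as usable where the scanner software marked it so. In raw signal, the spot mean minus the local background median, Aldh1a1 read 406 on DM-WT, against 120 on ND-WT. It read 428 on DM-KO, against 92.7 on ND-KO. Both diabetic arrays thus stood above both nondiabetic ones, a pattern known when the pair was picked, so nothing is read from it.

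Aldh1a7 gave a raw signal of 290 on DM-WT, against 145 on ND-WT. On DM-KO it gave 368, against 104 on ND-KO. Its diabetic arrays too lay above both nondiabetic arrays, which was likewise known beforehand. Because cortex is a mixture of cell types, more expressing cells and more RNA per cell cannot be told apart for either gene.

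Raw signals were then background-corrected, put on a log2 scale and quantile-normalized, so that the arrays share 1 distribution. Normalized log2 intensity of Aldh1a1 was 9.03 on DM-WT, 7.36 on ND-WT, 8.84 on DM-KO and 7.12 on ND-KO. That of Aldh1a7 was 8.60 on DM-WT, 7.57 on ND-WT, 8.62 on DM-KO and 7.23 on ND-KO. Aldh1a1 ordered the arrays DM-WT, DM-KO, ND-WT, ND-KO, and Aldh1a7 put DM-KO level with DM-WT. For scale, repeat spots of control probes within an array gave a difference between 2 arrays an SD of 0.142 on the log2 scale, which covers neither the labelling of a sample nor the spread between mice.

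**Figure D1:**
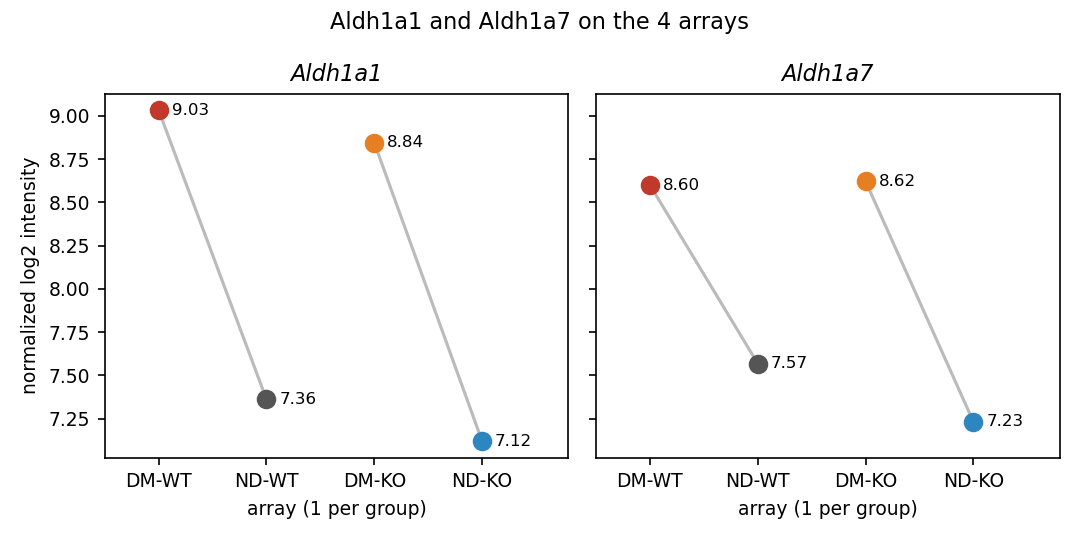
Normalized log2 intensity of Aldh1a1 and Aldh1a7 on the 4 arrays, 1 point per array, with grey lines joining the diabetic (DM) to the nondiabetic (ND) array of each genotype (WT, wild type; KO, ICAM-1-/-). Both genes lie higher on the diabetic array in both genotypes, Aldh1a1 by 1.67 in WT and 1.73 in KO and Aldh1a7 by 1.03 in WT and 1.39 in KO.

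In wild-type cortex Aldh1a1 was 3.19-fold higher with diabetes, a log2 difference of 1.67, and Aldh1a7 was 2.05-fold higher, a log2 difference of 1.03. Among 6054 genes usable on both arrays these ranked 6 and 26 from the top. Of those genes 27 were higher by at least 2-fold on the diabetic array (0.446%) and 9 lower by as much (0.149%), and the median difference was 0.00. As the contrast had already picked the pair, nothing is read from its place in that tail.

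In knockout cortex Aldh1a1 was 3.31-fold higher with diabetes (log2 difference 1.73) and Aldh1a7 2.62-fold (1.39). They ranked 2 and 4 of 6339 genes. Here 9 genes were higher by at least 2-fold on the diabetic array (0.142%) and 3 lower by as much (0.0473%). Both aldehyde dehydrogenases were thus among the few genes past 2-fold in this genotype. As their higher signal was known when they were picked, nothing is read from this either.

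Of 5914 genes usable on all 4 arrays, 6 were at least 2-fold higher with diabetes in both genotypes and 0 at least 2-fold lower in both. Ordered by the smaller of their 2 differences these were Cyp4a14 (2.00), Aldh1a1 (1.67), an unnamed transcript (1.13), Gsta2 (1.06), Aldh1a7 (1.03) and Ephx1 (1.02). Cyp4a14 codes for a fatty acid hydroxylase, Gsta2 for a glutathione transferase and Ephx1 for microsomal epoxide hydrolase. The next gene by this measure was Ltc4s at 0.99. With each array scaled by its median in place of quantile normalization 3 genes stood past 2-fold in both genotypes, Aldh1a1 among them, and Aldh1a7 (0.90 in WT), Gsta2 and Ephx1 no longer did. That scaling moved the median of these genes to -0.08 in WT and -0.02 in KO. Over the alternative settings the count lay between 3 and 10.

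**Figure D2:**
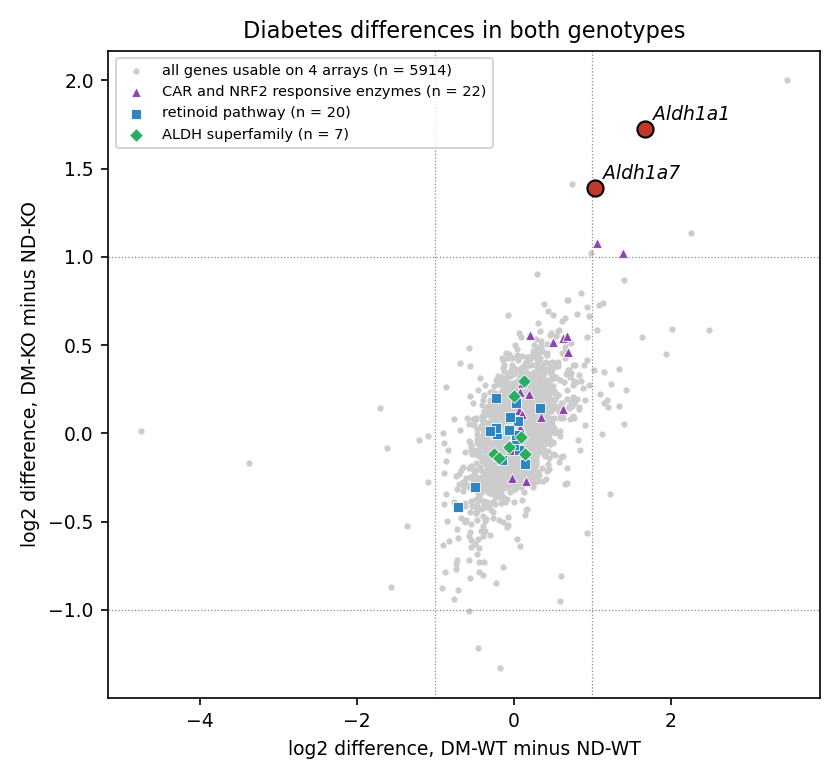
Log2 difference with diabetes in wild-type cortex (DM-WT minus ND-WT, horizontal axis) and in ICAM-1-/- cortex (DM-KO minus ND-KO, vertical axis) for the 5914 genes usable on all 4 arrays, with dotted lines at 2-fold. Aldh1a1 and Aldh1a7 (red) lie beyond 2-fold on both axes with quantile normalization (with median scaling Aldh1a7 lies at 0.90 in WT, short of 2-fold). The 7 other aldehyde dehydrogenases (green) and the 20 retinoid pathway genes (blue) lie short of 2-fold on both axes, the farthest being Adh1 at -0.72 in WT. A few drug-metabolizing enzymes (purple) lie to the upper right.

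The fold depends on how faint signals are treated, since the background correction adds an offset of 50 that draws dim values together. Before normalization the ratio of raw signals for Aldh1a1 was 3.40 on DM-WT over ND-WT and 4.61 on DM-KO over ND-KO. For Aldh1a7 these ratios were 2.00 and 3.54. In the authors' deposited value table, which scales raw signal by a constant per array, Aldh1a1 was 10.7 on DM-WT, against 2.72 on ND-WT, and 9.12 on DM-KO, against 2.06 on ND-KO. There Aldh1a7 was 7.62 on DM-WT, against 3.31 on ND-WT, and 7.85 on DM-KO, against 2.31 on ND-KO. The table's ratios were 3.92 and 4.42 for Aldh1a1 and 2.30 and 3.39 for Aldh1a7, in WT and KO.

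Aldh1a1 differed more with diabetes than Aldh1a7, by 0.64 on the log2 scale in WT and by 0.34 in KO. The knockout's diabetes difference exceeded that of WT by 0.05 for Aldh1a1 and by 0.36 for Aldh1a7. A departure larger in size than that of Aldh1a1 was seen in most of the 5914 genes, since 27.1% departed by less. For Aldh1a7 93.8% departed by less. With 1 array per group no departure could be tested.

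In nondiabetic cortex both genes gave slightly lower signal on the ND-KO array than on the ND-WT array. With 1 array per group this difference was not tested. The ND-KO minus ND-WT difference was -0.24 for Aldh1a1 and -0.34 for Aldh1a7, which put them 243 and 113 from the bottom of 6258 genes. For comparison, 27 genes were at least 1.5-fold lower (0.431%) and 11 at least 1.5-fold higher (0.176%) there, and neither aldehyde dehydrogenase was among them. Between diabetic arrays the DM-KO minus DM-WT difference was -0.19 for Aldh1a1 and 0.02 for Aldh1a7. Of 6110 genes 65 were at least 1.5-fold lower (1.06%) and 47 at least 1.5-fold higher (0.769%) on DM-KO than on DM-WT.

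The spots surrounding each probe on the slide were checked for a local disturbance. Within 3 rows and columns of the Aldh1a1 spot the median log2 difference was 0.04 for DM-WT minus ND-WT (range -0.52 to 0.45, 23 usable spots) and 0.00 for DM-KO minus ND-KO (range -0.27 to 0.20, 26 spots). Around the Aldh1a7 spot, which lies in the array's other block, these medians were -0.01 (-0.28 to 0.59, 33 spots) and 0.07 (-0.20 to 0.39, 34 spots). The highest neighbouring spot, at 0.59, stayed below the 1.03 of Aldh1a7 itself.

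Of the genes beside the pair on chromosome 19, Anxa1, next to Aldh1a1 and the source of the anti-inflammatory protein annexin A1, was higher with diabetes by 0.41 in WT and by 0.35 in KO. Among the 8 genes on each side, Ostf1, Carnmt1, Zfand5, 1110059E24Rik, Abhd17b and Cemip2 were also usable on all arrays. The differences of these 6 lay between -0.08 (Cemip2) and 0.09 (Ostf1) in WT, and between -0.05 (Abhd17b) and 0.12 (Zfand5) in KO. Gda was not usable on any array and Pcsk5 on nondiabetic arrays only.

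None of the other aldehyde dehydrogenases that could be read passed 1.5-fold. Of 18 further members of the superfamily 12 were on the array and 7 usable on all 4, and 0 of these 7 were 1.5-fold higher or lower with diabetes in either genotype. That compares with 1.75% of all genes at least 1.5-fold higher and 0.859% at least 1.5-fold lower in WT, and with 0.536% and 0.505% in KO. The median of the 7 differences was 0.00 in WT and -0.08 in KO, and -0.25 and -0.14 with median scaling. Since the list is short, a count of 0 is also what these shares would give.

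Aldh2, the mitochondrial enzyme that clears acetaldehyde, read 10.64 on DM-WT and 10.64 on ND-WT, and 10.59 on DM-KO, against 10.38 on ND-KO, in log2 intensity. Aldh3a1, an enzyme of the dioxin receptor's gene battery that oxidises aromatic and medium-chain aldehydes, read 7.99 on DM-WT, against 7.86 on ND-WT, and 8.04 on DM-KO, against 7.74 on ND-KO. Its difference in WT, 0.13 here, was -0.02 with median scaling, and that in KO was 0.30 and 0.28. Aldh3a2, which oxidises fatty aldehydes, had differences of -0.25 in WT and -0.12 in KO.

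Aldh9a1, which acts in carnitine synthesis, had differences of -0.19 in WT and -0.14 in KO. Aldh6a1 of valine breakdown had -0.06 and -0.08, Aldh7a1 of lysine breakdown 0.10 and -0.02, and Aldh3b1 0.14 and -0.12. Aldh1a2 and Aldh1a3, the other retinaldehyde dehydrogenases of the family, were not usable on any array, nor were Aldh1l1 and Aldh18a1. Aldh1b1 was usable on DM-KO only. No statement on the expression of these 5 genes can be made from arrays on which they were too faint to read.

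**Figure D3:**
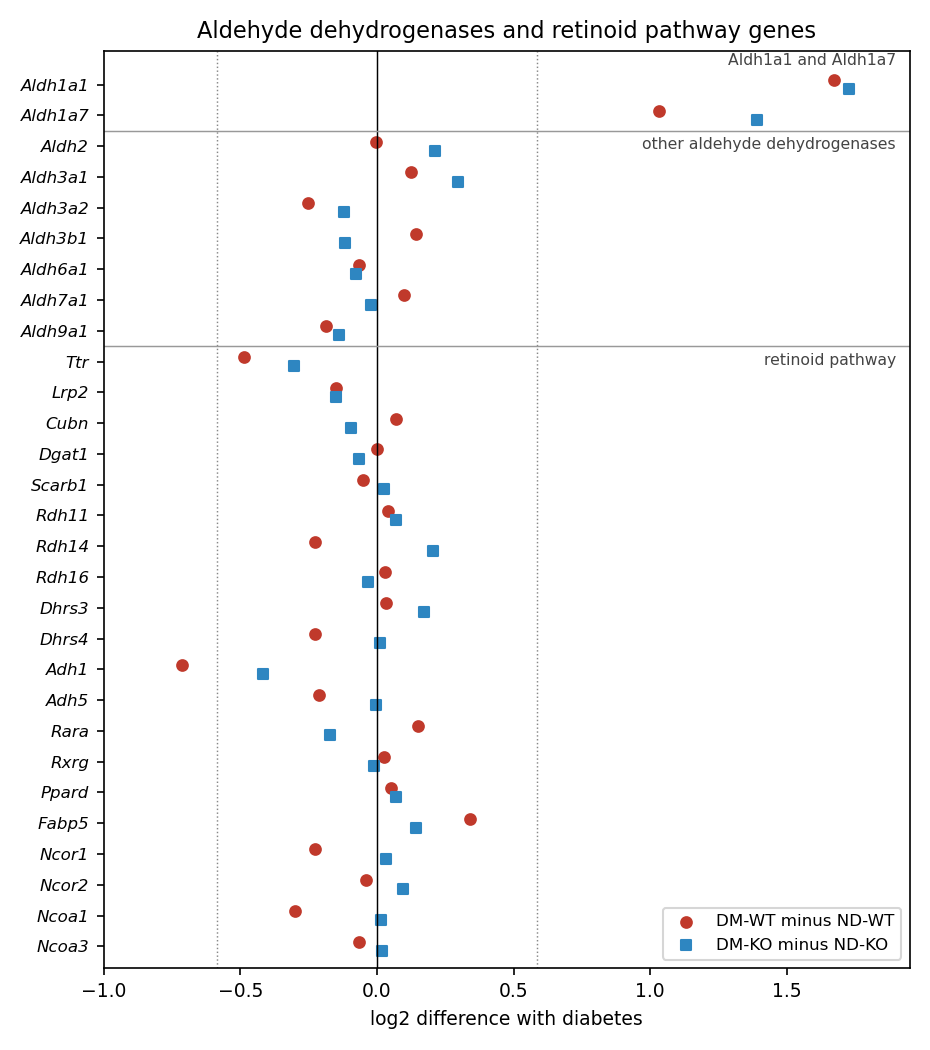
Log2 difference with diabetes in WT (red circles) and KO (blue squares) for Aldh1a1 and Aldh1a7 (top), the 7 other aldehyde dehydrogenases usable on all 4 arrays (middle) and the 20 retinoid pathway genes usable on all 4 (bottom), with dotted lines at 1.5-fold. With quantile normalization only the top pair lies to the right of the 1.5-fold line, and Adh1 lies to the left of it in WT at -0.72.

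The remainder of retinoid metabolism was read from a list of 56 genes, of which 40 were on the array, 20 usable on both WT arrays and 21 on both KO arrays. In WT 8 of 20 were higher and 12 lower with diabetes, with a median difference of -0.05. Median scaling gave 3 higher and 17 lower in WT, with a median of -0.10. In KO 12 of 21 were higher and 9 lower, with a median of 0.02. Past 1.5-fold stood 0 higher and 1 lower gene in WT, where 1.75% and 0.859% of all genes did, and 0 in KO, where 0.536% and 0.505% did. An additive limma fit over the 4 arrays, with terms for diabetes and genotype, tested 21 of these genes and called 0 at a Benjamini-Hochberg adjusted p under 0.05, with 3 at an unadjusted p under 0.05, as had 12.8% of all 6511 genes tested. Leaving out spots near the array's edge (columns 44 to 48 of the upper block), where 236 spots were usable on both WT arrays and 301 on both KO arrays, 0 of 20 were called, against 0.836% of 6218 genes called higher and 0.692% called lower.

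Among the genes of retinol uptake and transport, Ttr, which codes for the carrier transthyretin, read 10.45 on DM-WT, against 10.94 on ND-WT, and 10.22 on DM-KO, against 10.52 on ND-KO. Its differences of -0.49 and -0.30 were the lowest of the 5 usable genes in this role. Lrp2, which codes for the receptor megalin that retrieves filtered retinol-binding protein in the proximal tubule, differed by -0.15 in WT and -0.15 in KO. Its partner Cubn differed by 0.07 and -0.10. Dgat1, an acyltransferase that can esterify retinol, differed by 0.00 and -0.06. Stra6, Rbp4, Lrat, Rbp2 and Rbp7, which serve retinol entry, carriage and storage, were not usable on any array.

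For the step from retinol to retinaldehyde 7 genes were usable. Adh1, an alcohol dehydrogenase that also oxidises retinol, read 11.29 on DM-WT, against 12.01 on ND-WT, and 11.58 on DM-KO, against 12.00 on ND-KO. It differed by -0.72 in WT, past 1.5-fold, and by -0.42 in KO, with an adjusted p of 0.18 in the limma fit. With spot medians its WT difference was -0.58, short of 1.5-fold. Ttr stood past 1.5-fold in WT with median scaling (-0.70) and in the value table (-0.62). The spot of Adh1, and not that of Ttr, lies among those near the array's edge, so Adh1 was not in the fit without edge spots. Dhrs4, Adh5 and Dhrs3 differed by -0.23, -0.21 and 0.03 in WT and by 0.01, 0.00 and 0.17 in KO, Dhrs3 being a reductase that turns retinaldehyde back into retinol.

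Besides Aldh1a1 and Aldh1a7 no gene of retinaldehyde oxidation gave a usable signal, since Aldh1a2, Aldh1a3, Aox1 and Aox3 were dim on all 4 arrays. Cyp26a1, which breaks down retinoic acid, was dim as well. Among receptors and their partners Rara, the retinoic acid receptor alpha, differed by 0.15 in WT and -0.17 in KO. Rxrg differed by 0.03 and -0.01, the corepressor Ncor1 by -0.23 and 0.03, and Fabp5, which carries fatty acids and retinoic acid to PPARD, by 0.34 and 0.14.

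Genes that retinoic acid induces in other tissues were listed separately. Of 22 such genes 14 were on the array, 7 usable on both WT arrays and 8 on both KO arrays, and 0 were past 1.5-fold with diabetes in either genotype. Their median difference was 0.03 in WT and 0.07 in KO. The limma fit tested 8 of them for diabetes and called 0, with 0 at an unadjusted p under 0.05 and 0 called without the edge spots. The classic targets Cyp26a1, Stra6 and Lrat were not usable on any array, so the list speaks mainly for Dhrs3, Tgm2, Hoxb5, Meis1, Meis2, Foxa1 and Pck1, which span -0.14 (Meis1) to 0.17 (Pck1) in WT and -0.43 (Pck1) to 0.25 (Hoxb5) in KO. In WT Pck1 was at -0.22 with median scaling and at -0.12 in the value table. These 7 were named after their values were seen.

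Genes of drug and electrophile metabolism tied to the receptor CAR or the factor NRF2 formed a further list, chosen with some of their values known. The shares of all genes beside its counts therefore give scale only, and no enrichment is read from them. It holds mostly enzymes and transporters, along with the regulators Nr1i3, Nr1i2, Nfe2l2 (NRF2 itself) and its inhibitor Keap1. Of 45 genes 35 were on the array. In WT 18 of 22 usable genes were higher with diabetes and 6 at least 1.5-fold higher, against 1.75% of all genes, with a median of 0.13. With median scaling 11 of the 22 were higher and 2 at least 1.5-fold higher, with a median of 0.00, and Gsta4, Mgst1, Hmox1 and Cbr1 fell short of 1.5-fold at 0.45 to 0.55. In KO 18 of 24 were higher and 2 at least 1.5-fold higher, against 0.536% of all genes, with a median of 0.14, and 0 were 1.5-fold lower in either genotype. The limma fit tested 26 of them and called 0, with 11 at an unadjusted p under 0.05, beside 12.8% of all genes tested. Without the edge spots it called 7 of 25, all higher, beside the 0.836% of all genes called higher.

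Those 7 were Ephx1, Gsta2, Gsta3, Gsta4, Mgst1, Cbr1 and Cbr3. Ephx1 read 9.04 on DM-WT, against 7.65 on ND-WT, and 8.74 on DM-KO, against 7.72 on ND-KO, and its limma diabetes effect without the edge spots was 1.20 ± 0.10 on the log2 scale (SE, adjusted p = 0.015). With all spots its adjusted p was 0.12. Gsta2 read 11.52 on DM-WT, against 10.46 on ND-WT, and 11.45 on DM-KO, against 10.37 on ND-KO. Its limma effect was 1.05 ± 0.07 (SE, adjusted p = 0.011 without the edge spots and 0.12 with them).

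The other 5 had smaller effects of 0.50 to 0.61. Gsta4, a glutathione transferase that takes up the lipid aldehyde 4-hydroxynonenal, differed by 0.69 in WT and 0.46 in KO. Mgst1, a microsomal glutathione transferase, differed by 0.62 and 0.54. Cbr1, a carbonyl reductase, differed by 0.68 and 0.55. Hmox1, which codes for the haem-degrading enzyme heme oxygenase 1, passed 1.5-fold in WT only, at 0.63 against 0.14 in KO, and was not called in either limma fit (adjusted p 0.37 and 0.21). Ugt1a2, a glucuronosyltransferase, was usable on diabetic arrays only and was at least 15.3-fold higher with diabetes in WT and at least 2.65-fold higher in KO, measured against the faintest usable spot or the probe's own value, whichever was higher. Like Cbr3 it entered the limma fit only through the diabetic arrays, so no test of diabetes is read from it. The transcripts of CAR (Nr1i3) and of the related receptor PXR (Nr1i2) were not usable on any array.

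Profiles over the 4 arrays were compared with those of 5442 named genes usable on all of them, as the root mean square difference between log2 values centred on each gene's own mean. The gene nearest to Aldh1a1 was Aldh1a7 at 0.257, and others among the 10 nearest were Ephx1 (0.273), Gdf15 (0.322), Gsta2 (0.323), Ltc4s (0.371), Hacl1 (0.404), Tubb2b (0.452), Bhmt (0.456) and Calb1 (0.460). Nearest to Aldh1a7 was Gsta2 (0.117), and others among its 10 nearest were Ltc4s (0.165), Ephx1 (0.183), Gdf15 (0.229), Hacl1 (0.238), Bhmt (0.239), Aldh1a1 (0.257), Tubb2b (0.258) and Zmat3 (0.269). With only 4 arrays the measure says nothing of shared control.

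Gdf15, a cytokine of cell stress, read 7.71 on DM-WT, against 6.30 on ND-WT, and 7.32 on DM-KO, against 6.45 on ND-KO. Ltc4s, which codes for leukotriene C4 synthase, read 7.70 on DM-WT, against 6.72 on ND-WT, and 7.76 on DM-KO, against 6.74 on ND-KO. Hacl1, an enzyme of phytanic acid breakdown, differed by 1.14 in WT and 0.74 in KO. Bhmt, which remethylates homocysteine, differed by 0.85 and 0.79, and Zmat3, a zinc finger gene induced by p53, by 0.81 and 0.67.

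**Figure D4:**
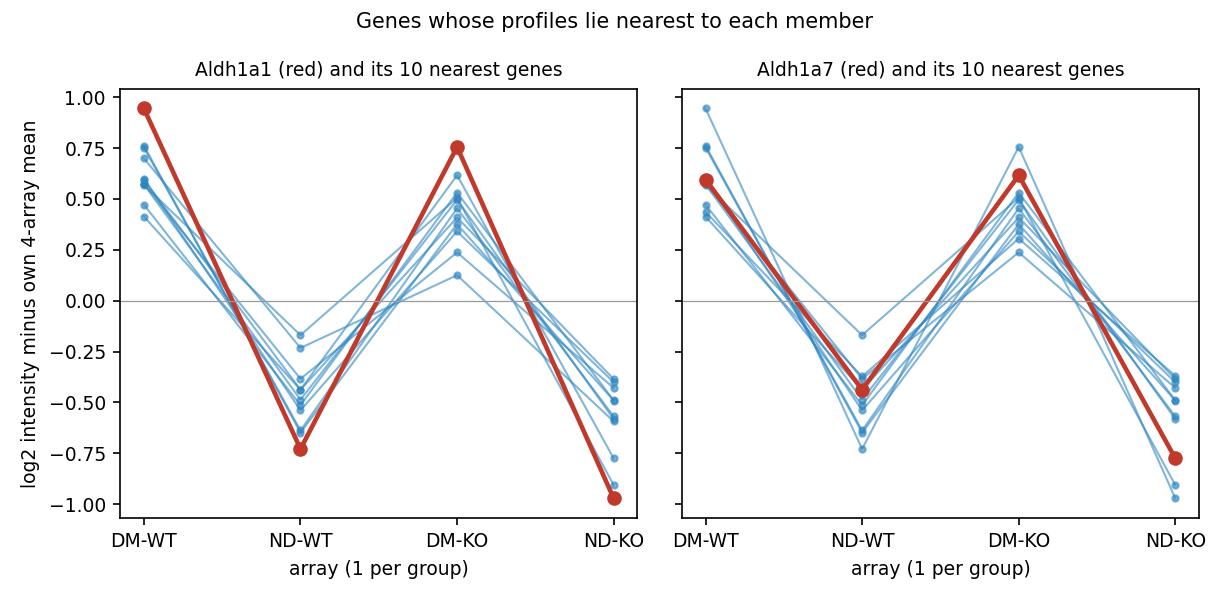
Log2 intensity minus the gene's own mean over the 4 arrays, for Aldh1a1 (left, red) and Aldh1a7 (right, red) with the 10 genes whose profiles lie nearest to each (blue), 1 point per array. All profiles are high on DM-WT and DM-KO and low on ND-WT and ND-KO, and the span of Aldh1a1, from -0.97 on ND-KO to 0.94 on DM-WT, is wider than that of its neighbours.

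Markers of several cell types differed between the arrays, and their part in the differences of Aldh1a1 and Aldh1a7 was not tested. Markers of the proximal tubule, the main cell type of cortex, were usable for 9 of 9 genes on every array. Their summed raw signal was 13959 on DM-WT, against 21008 on ND-WT, and 16938 on DM-KO, against 20610 on ND-KO. In normalized values 7 of the 9 were lower with diabetes in WT and 8 of 9 in KO. Their medians were -0.15 and -0.14 (-0.46 and -0.22 with median scaling). Kap, an androgen-dependent tubule gene, was at -0.71 and -0.59, and Gatm, an enzyme of creatine synthesis, at 0.25 and 0.50. Macrophage markers were usable for 7 of 8 genes and summed to 1205 on DM-WT, against 707 on ND-WT, and 1094 on DM-KO, against 773 on ND-KO. All 7 were higher with diabetes in both genotypes, with medians of 0.83 and 0.33 (0.69 and 0.31 with median scaling). Among them were C1qa (0.90 and 0.39), C1qb (0.83 and 0.33), Lyz2 (0.85 and 0.30) and Ctss (0.93 and 0.42).

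Distal markers summed to 8878 on DM-WT, against 7611 on ND-WT, and 8282 on DM-KO, against 7882 on ND-KO. Of 5 such genes 4 were higher with diabetes in WT and 3 in KO. Their medians were 0.53 and 0.32 (0.31 and 0.27 with median scaling). The calcium binders Calb1 and Pvalb were at 0.93 and 0.69 in WT and 0.72 and 0.36 in KO, Egf was at -0.24 and -0.23, and Umod, which codes for uromodulin, at 0.16 and -0.44. Collecting duct markers summed to 1721 on DM-WT, against 1836 on ND-WT, and 2268 on DM-KO, against 1503 on ND-KO. These raw sums compare arrays of unequal brightness. In normalized values 3 of 4 collecting duct markers were higher with diabetes in WT and 4 of 4 in KO. Their medians were 0.20 and 0.18 (0.03 and 0.18 with median scaling). The water channel Aqp2 was at 0.30 and 0.91. Podocyte markers were too faint to serve, with 1 of 3 usable on ND-WT and 0 on the other arrays. The adrenal, where Aldh1a1 is abundant in mice, was checked through 8 genes. Star, Cyp11a1, Cyp21a1 and Hsd3b1, which define steroid-producing cells, were not usable on any array. Of the other adrenal genes, 3 of 3 usable in WT were higher with diabetes, with a median of 0.06. In KO 1 of 4 usable was higher and 3 were lower, with a median of -0.06. The adrenal sum was 236 on DM-WT, against 237 on ND-WT, and 234 on DM-KO, against 233 on ND-KO.

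Liver markers, 3 or 4 of 5 usable, summed to 356 on DM-WT, against 228 on ND-WT, and 350 on DM-KO, against 279 on ND-KO, with 2 of 3 higher in WT and 2 of 4 in KO, Apoc3 at 1.02 and 0.36 and Apoa1 not usable on any array. Adipocyte markers summed to 2070 on DM-WT, against 2635 on ND-WT, and 1890 on DM-KO, against 3359 on ND-KO. Of these Adipoq and Cfd were usable on ND-KO only, Lpl differed by -0.46 and -1.22, and Fabp4 by 0.62 and 0.09. The adipocyte sum was highest on ND-KO. It is a sum of raw signal over arrays of unequal brightness, and its part in the differences of Aldh1a1 and Aldh1a7 was not tested.

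Between 62.8% (DM-WT) and 66.2% (DM-KO) of 10032 gene probes were usable per array, and the median raw signal was 37.7 on DM-WT and 43.5 to 46.3 on the other arrays. Bacterial transcripts added to each RNA had a median raw signal on DM-WT of 0.555 times that on ND-WT, and on DM-KO of 0.967 times that on ND-KO. Of 6511 genes in the limma fit, 1 was called higher with diabetes (0.0154%) and 0 lower, with 832 at an unadjusted p under 0.05. That gene was Aldh1a1, whose choice had used this contrast. For genotype 2 genes were called higher (0.0307%) and 1 lower (0.0154%). Its residual, 1 degree of freedom per gene, is the departure from additivity and not a spread between mice.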

How the data were processed

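RNA of renal cortex was hybridised to 1 one-colour CodeLink bioarray per group, and scanned with an Axon GenePix instrument, with CodeLink software for analysis, per the labels. The deposited scanner tables hold spot and local background intensity on a linear scale, unscaled, per the file headers. Each column of the authors' deposited value table, also intensity, matched the background-subtracted spot mean over a constant for that array (38.1 for DM-WT, 43.9 for ND-WT, 46.9 for DM-KO, 45.0 for ND-KO) for 100% of compared probes within 0.1%. Its column medians were 0.930, 0.926, 0.930 and 0.929 in that order. How the authors chose the constant is not given in the sources used here.

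From the deposited intensity, log2 values were computed with limma 3.58.1 in R 4.3.3, after normexp background correction (offset 50). Spots flagged poor were then set to missing and control spots removed, and quantile normalization followed. Probes were named by platform annotation (8923) or transcript accession (286); 822 had no symbol and 1 had several. Probes of a gene were averaged. Genes usable on at least 2 arrays entered 1 additive limma fit (diabetes, genotype), with Benjamini-Hochberg adjustment over all 6511. The fit was run on simulated data with equal spread for all genes and no departure from additivity. That run does not check its p-values on these arrays. Having 1 array per group limits its precision. Promoter windows were aligned with Biopython 1.88, and neighbours came from RefSeq gene order (GRCm38.p6).

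The members, lists and tests were chosen with earlier results of these data known. Named were the measured aldehyde dehydrogenases; list genes past 1.5-fold with diabetes or called by limma; up to 4 further retinoid genes per role with the highest level; and the 10 genes nearest to each member. Some of these genes are not reported here. Alternatives were median scaling, the value table, no background correction, an offset of 16, no filter, edge spots (columns 44 to 48 of the upper block) left out, an intensity trend, no covariate, and spot medians (chosen after seeing the data).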

Additional observations from a re-analysis of the deposited data

Results flagged for a closer look

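The genotype difference of Aldh1a7 had opposite signs in the 2 conditions, being 0.0208 for DM-KO minus DM-WT and -0.3375 for ND-KO minus ND-WT on the log2 scale. The value between diabetic arrays lies well inside the 0.142 SD of control spots. Aqp2, the water channel of the collecting duct, had 0.24109 between diabetic arrays and -0.36786 between nondiabetic ones. For Apoc3, an apolipoprotein gene, the DM-KO minus DM-WT difference was -0.34162 and the ND-KO minus ND-WT difference 0.31558. Lpl, the lipoprotein lipase gene, had -0.29954 and 0.4596 in the same comparisons. Gdf15, 1 of the genes nearest to both members in profile, had -0.38542 and 0.1577. The diabetes difference of Rara, the retinoic acid receptor alpha, was -0.17083 in KO and 0.14866 in WT, and with median scaling it was -0.19 in KO and -0.01 in WT, no longer of opposite sign. All 6 were picked out because 1 array of each pair moved one way and its counterpart the other. With 1 array per group none of these differences was tested.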

How the results depend on the processing

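No paired analysis was possible because each group has 1 array, and each member has 1 probe, so reading probes singly gives the same values. The diabetes differences of Aldh1a1 and Aldh1a7 kept their sign under every alternative, ranging from 1.52 to 1.97 (WT) and 1.69 to 2.15 (KO) for Aldh1a1 and from 0.90 to 1.20 (WT) and 1.32 to 1.76 (KO) for Aldh1a7. Their genotype differences also kept their signs, at -0.40 to -0.24 and -0.52 to -0.24 for ND-KO minus ND-WT, and -0.24 to -0.07 and 0.02 to 0.16 for DM-KO minus DM-WT. Under the value table the differences were 1.97 (WT) and 2.15 (KO) for Aldh1a1, 1.20 and 1.76 for Aldh1a7, and -0.40 and -0.52 for ND-KO minus ND-WT, with a range over arrays of 2.37 and 1.76 (1.92 and 1.39 as reported). An offset of 16 gave 1.91 and 2.02 for Aldh1a1, 1.19 and 1.63 for Aldh1a7, and ranges of 2.22 and 1.63. Median scaling gave 1.52 for Aldh1a1 in WT. Genes past 2-fold and past 1.5-fold numbered 36 and 158 for DM-WT minus ND-WT, 12 and 66 for DM-KO minus ND-KO, 5 and 38 for ND-KO minus ND-WT and 26 and 112 for DM-KO minus DM-WT. In the same order they were 94 and 402, 31 and 194, 24 and 147, and 63 and 268 under the value table, and 60 and 263, 22 and 115, 14 and 77, and 41 and 186 with an offset of 16. Without the filter on dim probes 65 genes passed 2-fold for DM-WT minus ND-WT, 9 for ND-KO minus ND-WT and 63 for DM-KO minus DM-WT, with 169 past 1.5-fold. Spot medians gave 3 past 2-fold for ND-KO minus ND-WT. Limma called 1 gene for diabetes and 3 for genotype over all genes, and 0 and 0 among the gene lists. Leaving out the edge spots, it called 95 and 12 over all genes and 7 for diabetes among the lists. Median scaling gave 86 and 15 over all genes, and 5 and 1 among the lists. For diabetes it called 0 over all genes under the value table, no background correction, an offset of 16, spot medians, an intensity trend and no covariate, and for genotype 0 under the value table and 1 with an offset of 16. Of the 10 genes nearest to each member, 4 (Aldh1a1) and 6 (Aldh1a7) were shared under the value table, and 7 to 10 under the other alternatives. The cause of these shifts was not tested. Signal over background limits what can be read, since Aldh1a2, Aldh1a3, Aox1, Aox3 and Cyp26a1 were too faint on every array.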
